A study of Danio rerio with 4 samples.

Results

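The genes described here are listed for transport by zebrafish ionocytes, the mitochondrion-rich cells that exchange ammonium, acid and calcium with the water. They encode channels, enzymes and transcription factors, and not all of them are particular to ionocytes. They were taken by symbol from the deposited count table: *rhcga*, *rhcgb*, *rhbg*, *rhag*, *ca2*, *ca15a*, *trpv6*, *foxi3a*, *foxi3b* and *gcm2*, with every copy of *rhcg* kept. The 10 symbols gave 11 of the 32520 gene IDs in the table, because 3 IDs share the symbol *rhcg*. RefSeq lists 3 genes of this kind, *rhcga*, *rhcgb* and *rhcgl1*, but the tables used here do not pair these names with Ensembl IDs, so the copies are called by ID. RNA was sequenced from whole larvae at 8 days post fertilization (dpf), in 2 libraries from wt and 2 from *grwd1* crispants, each group being a pool of 15 larvae. Crispants are larvae that were themselves injected as embryos with Cas9 mRNA and a pair of guide RNAs against *grwd1*, a gene required for assembly of the large ribosomal subunit. They are mosaic, so a pool holds edited and unedited cells. Crispants that were raised further died as larvae. Whether the wt embryos were injected with a control is not stated. The guides, which define the crispant group, are given 5′ to 3′ with the 10 bases next to the PAM end in capitals.
guide 1: gatacatgcgGTAAGCGGAG
guide 2: actccaccgaCAGATCCCAT

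In fish larvae, ammonium leaves mainly through the skin and, later, the gills. Rh glycoproteins are the ammonia channels of this route, and in zebrafish the H+-ATPase-rich ionocyte couples an apical Rhcg to acid secretion, with carbonic anhydrases supplying protons from carbon dioxide. Another ionocyte, rich in Na+/K+-ATPase, takes up calcium through the apical channel Trpv6. Foxi3a and Foxi3b are the forkhead factors that specify ionocytes in the larval skin, and Gcm2 is needed for the H+-ATPase-rich type. The RNA comes from whole larvae, so each value also holds any other tissue that uses the gene, such as red cells for *rhag*.

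The libraries held 15916216 to 18619802 counts, with overlapping depths in wt and crispants, and the 50 most abundant genes took 24.8% to 25.6% of them. *grwd1* itself stood at 25.0 and 24.1 CPM (counts scaled to a common library size, here with TMM factors) in wt and at 6.40 and 6.34 CPM in crispants. On the log2 scale, crispants over wt, this was -1.94 with a standard error of 0.18 (edgeR adjusted p = 3.25e-14). A gene passed at an adjusted p of 0.05 or less from edgeR's quasi-likelihood test, with Benjamini-Hochberg adjustment over all 20479 genes tested. By this rule 16.4% of the genes tested passed, 8.98% higher and 7.44% lower in crispants. Scaled by library totals alone, 70.2% of the genes that passed were higher in crispants, against 54.7% with TMM factors. The sources do not say whether the duplicate libraries came from separate pools of larvae. A p-value thus covers only how far such duplicates differed, which could be technical spread alone. In edgeR that spread is pooled over genes, with a median of 68.3 degrees of freedom per gene. A gene's p-value and interval therefore rest mostly on the pooled spread and little on its own duplicates.

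All 5 Rh genes rose in crispants, and none of the 6 other genes passed the test. The count of 5 of 11 genes (45.5%) stands beside the 8.98% of all genes tested that were called higher. The 11 genes were chosen with earlier results of these data known, which limits this comparison. Of the 5, 3 are *rhcg* copies, between which reads may be shared. All 11 genes passed the low-count filter, and all had a fitted log2 fold change above 0, with a median of 0.46 against 0.0046 over all genes tested. No gene was called lower by edgeR, DESeq2 or limma-voom. Without adjustment, 6 genes were higher and 0 lower at p under 0.05 in edgeR. In 7 of the 11 genes both crispant libraries lay above both wt libraries, which 28.1% of all genes tested also showed; in either direction, the groups did not overlap for 54.6% of all genes, and 26.5% had crispants lower.

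**Figure D1:**
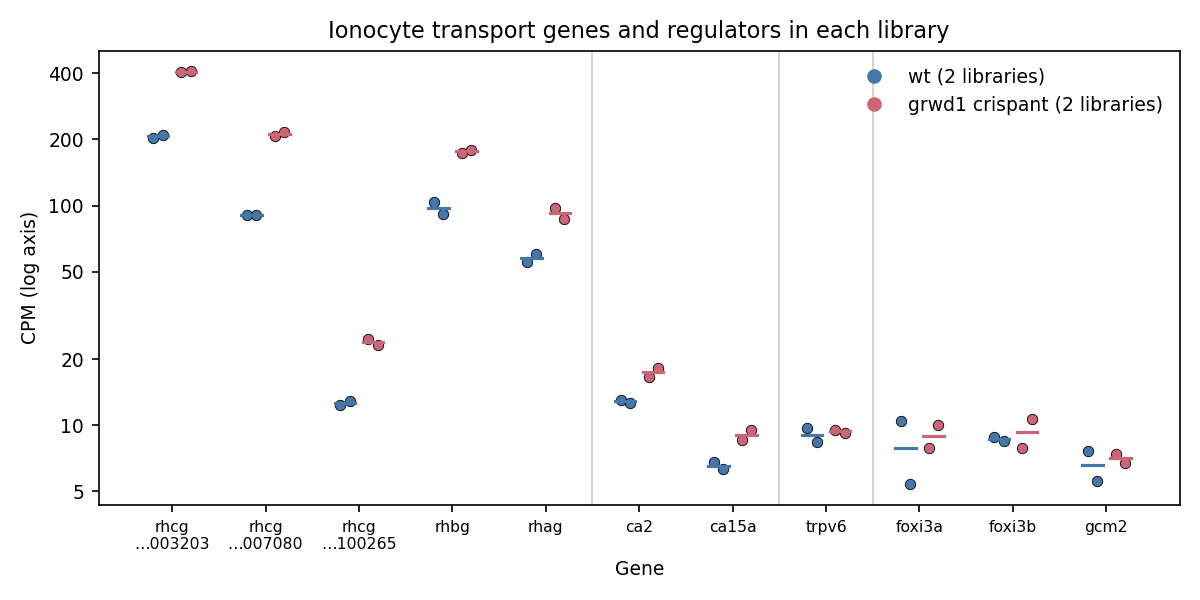
CPM on a log axis for the 11 genes, with 1 point per library, wt in blue and *grwd1* crispants in red, and a bar at the mean of each pair; the *rhcg* copies carry the last 6 digits of their IDs. The Rh genes on the left, *ca2* and *ca15a* have both crispant points above both wt points, whereas the points of *trpv6*, *foxi3a*, *foxi3b* and *gcm2* overlap between the groups.

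The *rhcg* copy with the most counts, ENSDARG00000003203, was at 203 and 210 CPM in the wt libraries and at 405 and 408 CPM in the crispant libraries. An apical Rhcg is the ammonia channel of fish ionocytes, but the symbols used here do not separate which copy encodes it. The crispant libraries were thus almost level with each other and far above both wt libraries. The group means were 206 ± 5.18 CPM in wt and 407 ± 2.27 CPM in crispants (SD, n = 2). The fitted change was 1.97-fold (95% interval 1.79 to 2.17), a log2 fold change of 0.98 with standard error 0.07 (adjusted p = 1.61e-19 from edgeR).

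The second copy, ENSDARG00000007080, had the largest change of the 11 genes. It was at 90.9 and 90.5 CPM in wt and at 206 and 217 CPM in crispants, with no overlap. The change was 2.34-fold (95% interval 2.10 to 2.60; log2 fold change 1.22, standard error 0.08, adjusted p = 6.54e-22 from edgeR). This log2 fold change was above that of 96.8% of all genes tested. The third copy, ENSDARG00000100265, was at 12.3 and 12.8 CPM in wt and at 24.7 and 23.2 CPM in crispants. Although it had far fewer counts (192 to 475 per library), its groups did not overlap either, and it rose 1.90-fold (95% interval 1.53 to 2.37, adjusted p = 4.88e-06 from edgeR). Whether reads shared between the copies were counted is not given in the sources used here, so the split among copies is less certain than their sum.

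Summed over the 3 copies, *rhcg* counts were 306 and 313 CPM in wt and 636 and 649 CPM in crispants, a ratio of the group means of 2.08. The copies kept their order in every library. ENSDARG00000007080 gave 29.7% and 28.9% of the *rhcg* counts in wt and 32.5% and 33.5% in crispants, while ENSDARG00000003203 gave 66.3% and 67.0% in wt and 63.7% and 62.9% in crispants. The share of ENSDARG00000100265 lay at 4.02% and 4.10% in wt and at 3.89% and 3.57% in crispants. These shares are of counts, not corrected for transcript length, and their differences were not tested.

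*rhbg* encodes the Rh glycoprotein that in fish gills lies on the basolateral side, where ammonia enters the epithelium. It was at 104 and 91.6 CPM in wt and at 174 and 180 CPM in crispants. The wt libraries differed more than the crispant ones here, but both stayed well below the crispants. The rise was 1.81-fold (95% interval 1.62 to 2.02; log2 fold change 0.86, standard error 0.08, adjusted p = 3.23e-14 from edgeR).

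*rhag* encodes the Rh-associated glycoprotein, which in vertebrates is best known from the red cell membrane. It was at 55.4 and 60.4 CPM in wt and at 97.1 and 87.0 CPM in crispants, again with no overlap. It rose 1.59-fold (95% interval 1.40 to 1.80; log2 fold change 0.67, standard error 0.09, adjusted p = 2.25e-08 from edgeR), the smallest rise of the 5 Rh genes. In edgeR 16.4% of all genes tested passed. Of 14 erythroid genes tested beside *rhag*, 0 passed, whichever of edgeR, DESeq2 and limma-voom was used. Without adjustment 1 of these was higher and 0 lower at p under 0.05 in edgeR. This was *urod*, whose 1.66-fold change did not pass (adjusted p = 0.138 from edgeR). Several had few counts per library, such as *gata1a* (4 to 12) and *fech* (23 to 41), so a rise like that of *rhag* could be missed in them. Of 22 erythroid names listed, 16 gave an ID, and no beta globin name did. The summed level of the erythroid genes with an ID was 161 to 173 CPM in wt and 165 to 174 CPM in crispants. The most abundant of them were *sptb* and *hbae3*, and none was at 0 in all libraries. *alas2*, the heme synthesis enzyme of red cells, was at 3.52 and 4.45 CPM in wt and at 2.91 and 4.66 CPM in crispants. *hbae3*, an embryonic alpha globin, was at 57.7 and 43.7 CPM in wt and at 51.4 and 62.0 CPM in crispants. Without wt replicate 1, and likewise without crispant replicate 1, 1 erythroid gene was called higher.

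Neither carbonic anhydrase passed the test, although in both the crispant libraries lay above the wt libraries. *ca2*, the cytosolic enzyme, was at 13.1 and 12.6 CPM in wt and at 16.7 and 18.2 CPM in crispants. Its groups did not overlap, but the 1.36-fold change (95% interval 1.07 to 1.72) did not pass (adjusted p = 0.0677 from edgeR). Under library totals alone it was called higher (adjusted p = 0.0302 from edgeR), and its adjusted p ranged from 0.0302 to 0.281 over 12 alternatives. *ca15a*, the membrane-bound enzyme of the H+-ATPase-rich ionocyte, was at 6.79 and 6.31 CPM in wt and at 8.53 and 9.51 CPM in crispants. The difference of 1.38-fold (95% interval 0.995 to 1.90, adjusted p = 0.188 from edgeR) did not pass either. These genes had 106 to 320 counts per library, and their intervals were wider than those of *rhbg* and *rhag*.

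*trpv6*, the epithelial calcium channel, was at 9.73 and 8.4 CPM in wt and at 9.47 and 9.26 CPM in crispants. Both crispant libraries lay between the wt libraries. The fitted fold was 1.03 (95% interval 0.77 to 1.39, adjusted p = 0.923 from edgeR), so a doubling of the kind seen for *rhcg* lies outside the interval.

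None of the forkhead and Gcm factors passed the test either. *foxi3b* was at 8.84 and 8.51 CPM in wt and at 7.91 and 10.7 CPM in crispants, with a fold of 1.07 (95% interval 0.79 to 1.45, adjusted p = 0.837 from edgeR). *gcm2* was at 7.62 and 5.54 CPM in wt and at 7.39 and 6.71 CPM in crispants, with a fold of 1.08 (95% interval 0.76 to 1.52, adjusted p = 0.844 from edgeR). In both genes the crispant libraries overlapped the wt libraries. *foxi3a* was at 10.4 and 5.38 CPM in wt and at 7.86 and 10.0 CPM in crispants, so its wt libraries differed from each other by 1.94-fold and enclosed both crispants. Its fold of 1.13 (95% interval 0.81 to 1.58, adjusted p = 0.690 from edgeR) depended on which wt library was used. The log2 fold change was 0.72 without wt replicate 1 (adjusted p = 0.109) and -0.23 without wt replicate 2 (adjusted p = 0.672 from edgeR). The signs of *trpv6* and *gcm2* also changed without wt replicate 2, and those of *foxi3a* and *foxi3b* without crispant replicate 2.

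**Figure D2:**
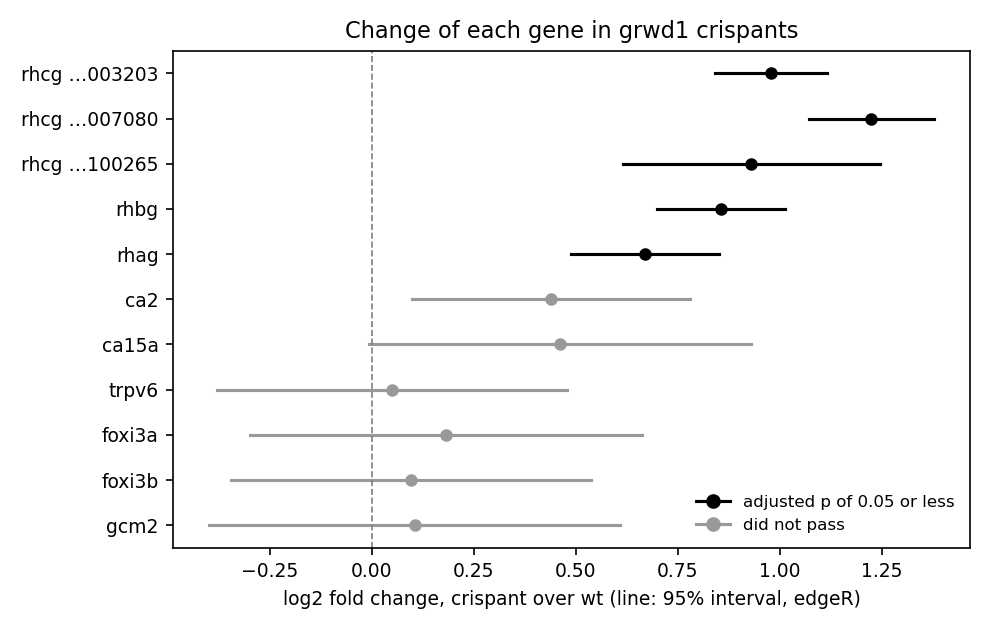
Log2 fold change, crispants over wt, of each gene (point) with its 95% interval (line) from edgeR, black where the adjusted p was 0.05 or less and grey where it was not; the dashed line marks 0. The 5 Rh genes lie at 0.67 to 1.22 with intervals clear of 0, and the intervals of *ca15a*, *trpv6*, *foxi3a*, *foxi3b* and *gcm2* include it.

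Set against *foxi3b*, *gcm2* and *ca15a* within a library, *rhcg* stood higher in crispants. The count of ENSDARG00000003203 was 22.9 and 24.7 times that of *foxi3b* in wt and 51.2 and 38.2 times in crispants. Over *gcm2* the ratio was 26.6 and 37.9 in wt and 54.8 and 60.8 in crispants, and over *ca15a* it was 29.8 and 33.3 in wt and 47.5 and 42.9 in crispants. In all 3 ratios both crispant libraries lay above both wt libraries. By contrast, the ratio of *trpv6* to *foxi3b* was 1.1 and 0.99 in wt and 1.2 and 0.87 in crispants, with overlap. These ratios follow from the CPM values already given and are not separate support for a change. They are of counts without correction for length and were not tested. In bulk RNA, more or fewer cells of a type and more or less RNA per cell cannot be told apart.

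Other transport genes of ionocytes moved in both directions, with more of them higher. Of 27 tested, 11 rose, 2 fell and 14 did not pass, with a median log2 fold change of 0.38. The share that rose was 40.7%, beside 8.98% of all genes tested, of which 7.44% fell. The genes that rose with the smallest p were *atp1a1a.4* (0.71) and *atp1a1a.3* (0.71), alpha subunits of the Na+/K+-ATPase, *aqp3* (ENSDARG00000003808, 0.76), an aquaglyceroporin, and *atp1b1* (ENSDARG00000076833, 0.41), a beta subunit of the same pump. *atp1a1a.4* went from 265 and 270 CPM in wt to 452 and 421 CPM in crispants. *slc9a3.2*, an apical sodium-proton exchanger that works beside Rhcg in H+-ATPase-rich ionocytes, was chosen with its values known. It was at 3.14 and 3.02 CPM in wt and at 8.01 and 7.89 CPM in crispants, a rise of 1.37 on the log2 scale (SE 0.29, edgeR adjusted p = 2.0e-04). Likewise chosen, *atp1a1a.5*, an alpha subunit listed with these cells, rose by 0.87, and *slc12a10.2*, the sodium-chloride cotransporter of another ionocyte type, rose by 0.56. Its relative *slc12a10.1*, also chosen with its values known, was at only 0.51 and 0.55 CPM in wt and 2.19 and 1.62 CPM in crispants. It had a log2 fold change of 1.83 with a standard error of 0.63 (edgeR adjusted p = 0.0332). This call was lost under DESeq2 (adjusted p = 0.109), under limma-voom (0.0552) and whichever library was left out (log2 fold change 1.59 to 2.02).

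Of the V-type H+-ATPase, the pump that the H+-ATPase-rich cell is named for, 1 subunit was on the list. Of its *atp6v1a* copies, which encode the catalytic subunit and are used by all cells, ENSDARG00000076318 fell by 0.48 on the log2 scale, from 72.2 and 68.5 CPM in wt to 47.8 and 52.9 CPM in crispants (adjusted p = 1.03e-04 from edgeR). The copy ENSDARG00000034534 was at 111 and 121 CPM in wt and at 106 and 114 CPM in crispants and did not pass. The table used here does not separate which copy is *atp6v1aa*, the one used by ionocytes. *atp2b2*, a plasma membrane calcium pump that serves calcium exit from ionocytes and is also abundant in neurons, fell by 0.38. *cftr*, the chloride channel, stood at a log2 fold change of -0.05 and did not pass.

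Among regulators of ionocyte fate and of calcium and hormone signalling, 4 genes passed. Of 33 tested, 3 rose and 1 fell, with a median log2 fold change of -0.09, so that 12.1% were called beside 16.4% of all genes tested. These counts depended on the setting: library totals gave 6 higher and 0 lower, and a minimum of 10 counts in every library gave 5 higher and 1 lower. *tp63*, the epidermal progenitor factor, rose by 0.59, *igfbp5* (ENSDARG00000025348) by 0.37 and *pappa2*, a protease of IGF-binding proteins, by 0.72. In zebrafish *igfbp5a* acts in calcium-transporting ionocytes, but the symbols used here do not separate which *igfbp5* copy it is. The other copy, ENSDARG00000039264, had a log2 fold change of 0.65 and did not pass (adjusted p = 0.189 from edgeR). *dld*, a Notch ligand, fell by 0.22. None of the 4 calls held under every library left out. That of *tp63* was lost without crispant replicate 2 (adjusted p = 0.115), those of *igfbp5* and *pappa2* without wt replicate 2 (0.0746 and 0.0762), and that of *dld* without wt replicate 1 (0.127), wt replicate 2 (0.136) or crispant replicate 1 (0.0622, all from edgeR), and also under library totals (0.0893). The call of *igfbp5* was also lost without crispant replicate 1 (0.0957) and that of *pappa2* without crispant replicate 2 (0.0515). The number of genes that rose was thus 1 without wt replicate 2 and 1 without crispant replicate 2.

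The other carbonic anhydrases included the largest change of this enzyme family. Of 12 tested, 2 rose and 1 fell, with a median log2 fold change of -0.10. Thus 16.7% were called higher, beside 8.98% of all genes tested, and 25% were called in either direction, beside 16.4%. *ca15c* was at 2.82 and 4.61 CPM in wt and at 14.0 and 12.5 CPM in crispants, a rise of 1.82 on the log2 scale (SE 0.24, edgeR adjusted p = 1.17e-08). In RefSeq's assembly GRCz12tu, *ca15c* is the gene next to *ca15a*. *ca6*, a secreted form, rose by 0.31, a call lost under DESeq2 (adjusted p = 0.0676). The *ca6* call was also lost without wt replicate 1 (log2 fold change 0.25) and without crispant replicate 2 (0.27). A copy of *ca10* (ENSDARG00000052644), a family member without enzymatic activity, fell by 0.52, a call lost without wt replicate 1 (log2 fold change -0.46).

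Genes of nitrogen handling, the other source and route of ammonium, gave 8 higher and 2 lower of 23 tested, with a median log2 fold change of 0.22. Thus 34.8% were called higher, beside 8.98% of all genes tested, and 43.5% were called in either direction, beside 16.4%. The number higher was 5 when wt replicate 1, wt replicate 2 or crispant replicate 2 was left out. *slc14a2*, a urea transporter, was at 8.01 and 8.95 CPM in wt and at 21.0 and 21.0 CPM in crispants, a rise of 1.3 on the log2 scale (SE 0.18, edgeR adjusted p = 2.25e-08). *uox*, urate oxidase, rose by 0.60. *gls2* (ENSDARG00000069095), a glutaminase, rose by 0.55 and *otc*, the ornithine transcarbamylase of the urea cycle, by 1.08, calls that were lost without crispant replicate 1 (edgeR adjusted p = 0.125 and 0.0591). The other *gls2* copy, ENSDARG00000002917, had a log2 fold change of -0.07 and did not pass (adjusted p = 0.804 from edgeR). The genes that fell were both copies of *glul*, glutamine synthetase, which fixes ammonium into glutamine. ENSDARG00000099776 went from 712 and 713 CPM in wt to 496 and 512 CPM in crispants, a log2 fold change of -0.50 (adjusted p = 4.18e-09 from edgeR). The call of the other copy, ENSDARG00000100003 (-0.22), was lost without wt replicate 1 (adjusted p = 0.174) or wt replicate 2 (0.102 from edgeR).

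Genes of calcium handling outside the ionocyte list gave 4 higher and 6 lower of 25 tested, with a median log2 fold change of -0.15. Thus 16% were called higher, beside 8.98% of all genes tested, and 40% were called in either direction, beside 16.4%. *cyp24a1*, which inactivates vitamin D, went from 135 and 145 CPM in wt to 236 and 250 CPM in crispants (log2 fold change 0.79, adjusted p = 3.63e-14 from edgeR). *trpv4*, a calcium-permeable channel of the same family as *trpv6*, went from 3.39 and 4.5 to 8.48 and 8.64 CPM and rose by 1.11. The pump genes *atp2a2a* (0.35) and *atp2a2* (0.28), of the sarcoplasmic and endoplasmic reticulum, also rose. The call of *atp2a2* was narrowly lost under DESeq2 (adjusted p = 0.0501). That call was also lost without wt replicate 1 (log2 fold change 0.26), wt replicate 2 (0.30) or crispant replicate 2 (0.25). *calb2b* (-0.48), *calb2* (-0.48) and *atp2b3a* (-0.34), which encode calcium binding proteins and a calcium pump of neurons, fell, as did *calm1a* (-0.31), a calmodulin gene whose call was lost without wt replicate 1 (edgeR adjusted p = 0.0604). The falls of largest size, chosen with their values known, were those of *s100a1* (-2.18), a calcium binding protein, and *cyp2r1* (-1.18), which hydroxylates vitamin D. *s100a1* went from 2.95 and 3.18 to 0.26 and 1.12 CPM, so its crispant libraries differed widely from each other, and its call was lost without crispant replicate 1 (edgeR adjusted p = 0.0964). That of *cyp2r1* was lost under DESeq2 (adjusted p = 0.103), and without wt replicate 2 (log2 fold change -0.89) or crispant replicate 1 (-0.97).

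**Figure D3:**
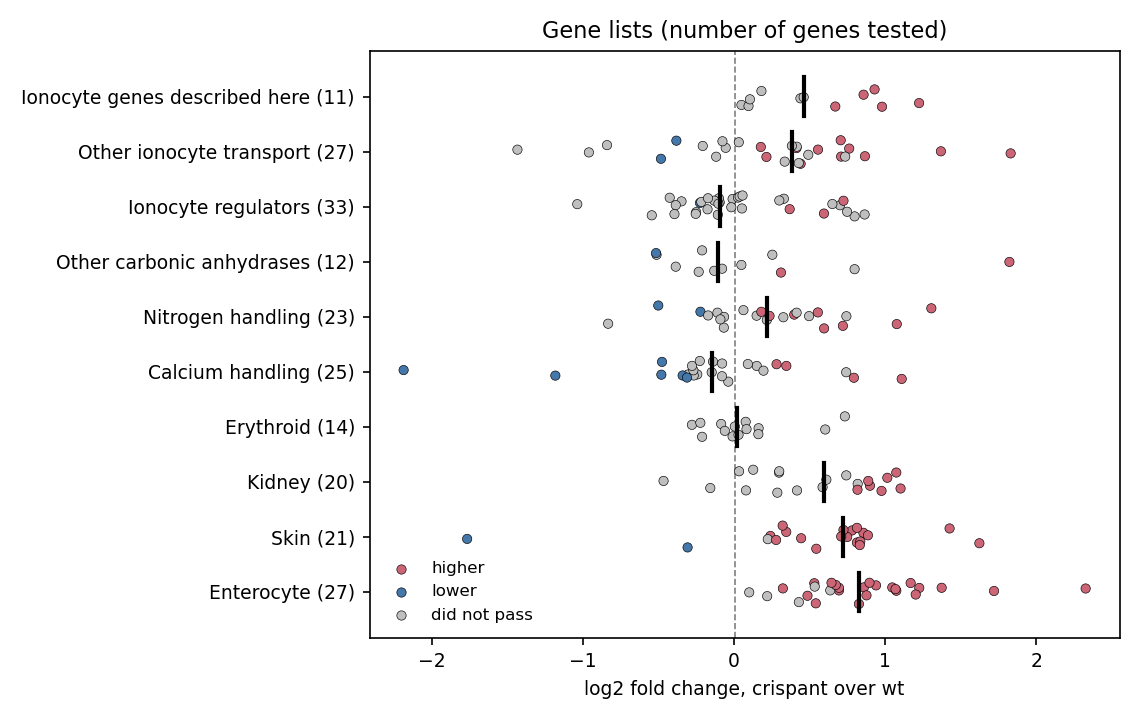
Log2 fold change, crispants over wt, of every tested gene (point) in each list, with the number tested in parentheses, a black bar at the list's median and red, blue or grey for higher, lower or did not pass; the dashed line is the median of all genes. The ionocyte genes described here have a median of 0.46, between the other ionocyte transport genes (0.38) and the kidney list (0.60), and the skin (0.72) and enterocyte (0.83) lists lie further to the right.

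Among markers of other tissues that hold ion transporting cells, more genes rose than fell, as counted here for each list. The shares that rose were 85.7% for skin, 35% for kidney and 81.5% for enterocyte genes. Of all genes tested, 8.98% rose and 7.44% fell. Ionocytes lie in the skin, and of 21 skin genes 18 rose and 2 fell, with a median log2 fold change of 0.72. Their summed level was 9591 and 9362 CPM in wt and 11129 and 11827 CPM in crispants. *ppl* (1.43) and *evpla* (1.62), which encode the envelope proteins periplakin and envoplakin, rose most among skin genes, the keratin genes *krt17* (0.78) and *krt92* (0.75) rose less, and the keratin genes *cyt1l* (-1.76) and *cyt1* (-0.31) fell. Of 20 kidney genes 7 rose and 0 fell, with a median of 0.60 and a summed level of 433 and 460 CPM in wt and 577 and 593 CPM in crispants. *cdh17* (0.89), *slc12a3* (1.01) and *cubn* (1.07), of pronephric tubules, were among them, as was *slc20a1* (ENSDARG00000020114, 0.98). The symbols used here do not separate which *slc20a1* copy is *slc20a1a*, the name listed for kidney. The more abundant copy, ENSDARG00000010641, was at 148 and 155 CPM in wt and at 149 and 161 CPM in crispants and did not pass. Of 27 enterocyte genes 22 rose and 0 fell, with a median of 0.83 and a summed level of 3364 and 3406 CPM in wt and 5122 and 5337 CPM in crispants. They included the transporter genes *slc6a19* (ENSDARG00000018621, 2.33) and *slc15a1* (ENSDARG00000044528, 1.22), and the brush border gene *vil1* (1.07). DESeq2 and limma-voom also called 0 kidney and 0 enterocyte genes lower; without adjustment, edgeR had 0 lower in either list and 11 and 22 higher at p under 0.05. *cubn* is on both lists. No listed marker of these tissues was at 0 in all libraries, although *umod* of the kidney list had 0 counts in 3 libraries and 1 count in crispant replicate 1. The part of these tissues in the rise of the Rh genes was not tested.

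The profile over the 4 libraries that lay nearest to that of the *rhcg* copy ENSDARG00000003203 was sought among the 15851 named genes whose log2 CPM averaged 1 or more. The measure was the Euclidean distance between log2 CPM values centred on each gene's mean. Among the 5 nearest were *mvp* (distance 0.037), the major vault protein, *iqgap3* (0.038), *oclnb* (0.038), an occludin of tight junctions, and *c3a.6* (0.048), a complement gene. The call of *iqgap3* was lost under DESeq2 (adjusted p = 0.0907) and whichever library was left out. The *rhcg* copy ENSDARG00000100265 lay at 0.10 and *rhbg* at 0.21, whereas *gcm2* lay at 0.94 and *foxi3a* at 1.03. With 4 libraries in 2 groups, such a distance mostly ranks genes by how close they come to the same fold change.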

How the data were processed

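RNA from whole larvae was sequenced in 2 wt and 2 *grwd1* crispant libraries made with a stranded total RNA kit. Per the submitters' processing notes and the study's methods, the authors used Trimmomatic 0.39 for trimming, HISAT2 with GRCz11 for alignment and featureCounts for counting reads per Ensembl gene. The table deposited by the authors holds raw counts. Which annotation release, strand setting and handling of multi-mapped reads was used is not given in the sources used here. Of 32667 lines, 147 were exact repeats and were dropped. Symbols came from a name table (29201 IDs matched) and older names from RefSeq (GRCz12tu); names that could stand for copies on different lists were left out. The members and lists were chosen with earlier results of these data known.

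Counts were filtered with filterByExpr, scaled by TMM and then tested in edgeR 4.0.16 (glmQLFit and glmQLFTest, group as the only term) under R 4.3.3, and the tests were checked on simulated counts. A standard error is the log2 fold change over the root of F. Precision is limited by 2 libraries per group and, for the members outside the Rh family, by 98 to 320 counts per library. Some genes of the other lists had fewer counts. The libraries of a group differed by more than counting noise (chi-square 4.57 and 5.12 times its degrees of freedom). The text names every member, up to 4 genes with the smallest p in each direction of a list, and 5 nearest profiles (log2 of CPM plus 0.5); a gene of the lists and a nearest profile are not reported here. Alternatives were DESeq2 1.42.0, limma-voom (limma 3.58.1), RLE factors, library totals, other filters, an adjusted p of 0.01, a replicate block and leaving out each library. No sequence of a member was used.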

Additional observations from a re-analysis of the deposited data

How the results depend on the processing

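The 5 Rh genes were called higher, and no member was called lower, under all 12 alternatives (leave-one-out included); with the replicate number as a block 5 members were called higher and 0 lower. The labels give replicate numbers without saying whether they pair samples. Deviations of same-numbered libraries correlated at r = -0.01 over 20479 genes, so no pairing was seen, although such a correlation cannot settle it. Under library totals 6 members were higher, *ca2* being added (0.51), and the median log2 fold change of all genes was 0.0774 against 0.00457. Without wt replicate 2 the log2 fold changes of *trpv6* (-0.0558), *foxi3a* (-0.23) and *gcm2* (-0.11) changed sign, and without crispant replicate 2 so did those of *foxi3a* (-0.0057) and *foxi3b* (-0.14); with a library left out they ran up to 0.1552 for *trpv6*, 0.7249 for *foxi3a*, 0.3458 for *gcm2* and 0.301 for *foxi3b*. Why was not tested. Over all genes, 1839 rose and 1524 fell; DESeq2 gave 1105 and 1009, an adjusted p of 0.01 gave 1193 and 938, and library totals gave 1000 lower. Leaving out a library gave 935 to 1327 lower and 1266 to 1375 higher, with 935 lower without wt replicate 1 and 1003 without wt replicate 2, where fewer samples entered. The listed genes called higher numbered 61 to 67 and those lower 10 to 16 when a library was left out, against 74 and 14. The replicate block gave 1809 higher and 1451 lower over all genes and changed no member's call.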
